A study of Mus musculus with 16 samples.

Results

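Some entries of the early mouse miRNA catalogue are treated with caution because they were later questioned or withdrawn. Several of them, but not all, overlap ribosomal RNA, transfer RNA or repeats. The 7 questioned entries described here were mmu-miR-689, mmu-miR-690, mmu-miR-709, mmu-miR-712, mmu-miR-720, mmu-miR-762 and mmu-miR-805. Whether the signal of an entry came from such RNA was not tested. They were picked by name from the 577 miRNAs on the array, by a rule that uses no measured value, although earlier results of these data were known when the list was made. Each was taken from the rows that carry exactly its name, with its total gene signal in intensity units and its yes or no detection call on every array. Dorsal skin miRNA of mice was hybridised to 16 single-colour Agilent arrays, 4 in each of 4 groups. Mice were Ppard+/+ (WT) or Ppard-/- (KO), that is with or without the nuclear receptor PPARβ/δ in the whole body, on a mixed SKH1-C57/Bl6-SV129 hairless background. Mice were females from several litters, with WT and KO as littermates, and no label ties an array to an animal. The methods give an age of 8 to 12 weeks without saying at which point, and the 12 weeks of irradiation make it unlikely to be the age at harvest. Controls were sham-manipulated and matched for age. WT no UV and KO no UV skin was not irradiated, and WT UV and KO UV skin was non-lesional skin of mice given 70 mJ/cm2 of UVB 3 times a week for 12 weeks. Ppard mRNA is not on such arrays, so genotype was not checked here.

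A miRNA is cut from a hairpin precursor, loaded into an Argonaute protein, and pairs with target mRNAs mainly through its seed, bases 2 to 8 of the mature strand. Fragments of transfer and ribosomal RNA fall into the same length range and are abundant in every cell. On this platform a Cy3 nucleotide is joined to the 3′ end of RNA and the labelled RNA is hybridised to short probes, so a signal reports labelled RNA that pairs with the probe, whatever its origin. MiR-720 is known as a fragment of a threonine transfer RNA. MiR-712 is known to arise from the spacer of the ribosomal RNA precursor and to respond to disturbed flow in endothelium. MiR-709 is known as a nuclear miRNA that bears on the processing of the miR-15a/16-1 transcript.

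RefSeq tables of the GRCm38.p6 mouse assembly held a gene for 3 of the 7 entries. Mir690 overlapped Fgf12, a gene for a fibroblast growth factor homologue that acts on sodium channels. Mir709 overlapped Rfx1, a transcription factor gene, and Mir762 overlapped Bcl7c, a gene for a chromatin remodelling subunit. A mature sequence was given for 2 of the 7. Both are shown because they let the reader set an entry with an annotated hairpin beside the others, and the capitals mark the seed.
mmu-miR-690: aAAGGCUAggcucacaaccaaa
mmu-miR-762: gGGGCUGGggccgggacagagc
Both mature RNAs were 22 bases long. The seed of mmu-miR-690, AAGGCUA, was shared with 0 others of the 1679 mature sequences in the table. The seed of mmu-miR-762, GGGCUGG, was shared with 2 of them, mmu-miR-6940-5p and mmu-miR-7648-3p, and neither was on the array. Bases G and C made up 81.8% of mmu-miR-762, more than in 98.9% of the mature sequences, and 45.5% of mmu-miR-690, where 24.8% of the sequences held less. The hairpins follow, with the mature strand in capitals.
Mir690 hairpin: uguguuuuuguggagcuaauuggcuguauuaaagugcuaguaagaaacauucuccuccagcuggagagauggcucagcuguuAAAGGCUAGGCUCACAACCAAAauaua
Mir762 hairpin: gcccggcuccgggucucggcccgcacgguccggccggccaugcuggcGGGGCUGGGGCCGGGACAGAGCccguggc
The mature strand filled positions 83 to 104 of the 109 bases of the Mir690 hairpin and 48 to 69 of the 76 bases of the Mir762 hairpin, towards the 3′ end in both.

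The files place the probes on the mm9 build. The probes of one entry are nested, sharing an end and differing in length by 1 base at a time, and the longest interval of each is given here. MiR-690 lay on chromosome 16 at 28600026 to 28600041, mmu-miR-709 on chromosome 8 at 86610073 to 86610084, and mmu-miR-762 on chromosome 7 at 134852057 to 134852069. MiR-689 lay on chromosome 1 at 169270598 to 169270610 and mmu-miR-720 on chromosome 3 at 88920532 to 88920543, and for neither did the tables hold a gene. MiR-805 was listed on the mitochondrial genome at 16169 to 16182, and mmu-miR-712 was listed as unmapped. The 4 brightest entries, mmu-miR-689, mmu-miR-690, mmu-miR-709 and mmu-miR-720, had 2 probes with 10 spots each, and the other 3 had 4 probes with 5 spots each.

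Summed over all miRNAs, an array gave 170979 to 395200 units in all, and KO no UV arrays (254694 to 395200) were mostly brighter than WT no UV arrays (170979 to 265981). Irradiated samples were on one slide and non-irradiated samples on the other, so irradiation and slide cannot be told apart in any comparison between them. The SD of the negative control spots was 9.10 to 10.3 units on the slide of irradiated skin and 3.66 to 4.25 units on the other, so a dim signal stood out less on the former. On the slide of irradiated skin WT filled row 1 and KO row 2, so genotype and row cannot be told apart there. The keratinocyte miRNAs miR-203 and miR-205 were detected on all 16 arrays, as skin should show. The 7 entries together made up 2.48% to 4.10% of an array's total signal, with means of 3.51% ± 0.653 (SD, n = 4) without UV and 2.83% ± 0.186 with UV in WT, and of 3.70% ± 0.430 without and 3.20% ± 0.564 with UV in KO.

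MiR-689, mmu-miR-690, mmu-miR-709 and mmu-miR-720 were detected on all 16 arrays, as were 167 of the 577 miRNAs (28.9%). MiR-712 was detected on 8 of 8 arrays of non-irradiated skin and on 0 of 8 of irradiated skin. MiR-762 was detected on 8 of 8 arrays without UV, on WT UV replicates 1 and 3, and on 0 of 4 KO UV arrays. MiR-805 was detected on WT no UV replicates 1 and 2, on 4 of 4 KO no UV arrays and on 0 of 8 irradiated arrays. A miRNA was tested if some group detected it on every array, which held for all 7 and for 228 of 577 miRNAs (39.5%). MiR-712, mmu-miR-762 and mmu-miR-805 met it only through non-irradiated skin, so their place among the tested miRNAs leans towards a fall with UV.

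**Figure D1:**
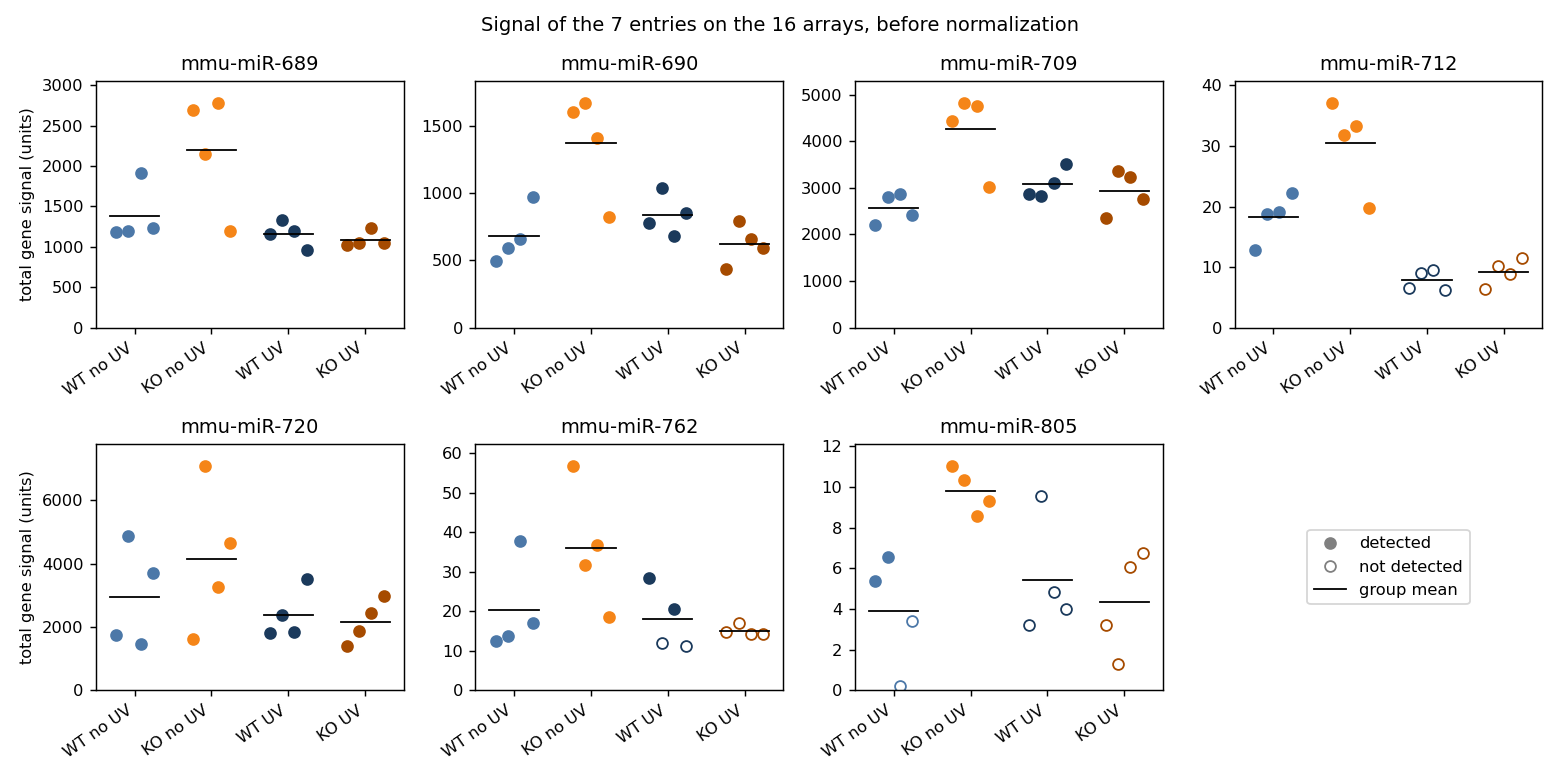
Total gene signal in intensity units (vertical axes, each starting at 0 and scaled to its own entry) for the 7 entries on the 16 arrays, by group. Filled points are arrays that detected the entry, open points arrays that did not, and lines are group means over 4 arrays. The irradiated points of mmu-miR-712 are all open and lie under every non-irradiated point, whereas for mmu-miR-720 the points of each group span a wide range.

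All tests used 1 limma model of normalized log2 signal over the 16 arrays. Values under 19.4 units were set to that floor (4.28 on the log2 scale). The floor understates differences of dim entries, and it also understates their spread and so their SE. Calls were made where p, adjusted by Benjamini-Hochberg over the 228 tested miRNAs, was under 0.05. Of 35 tests, 7 entries in 5 contrasts, 1 was called, a lower mmu-miR-712 with UV in KO.

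MiR-712, the fragment of the ribosomal RNA spacer, gave lower signals on the arrays of irradiated skin in both genotypes, and the difference was called in KO. It entered the tests only because the non-irradiated arrays detected it, so the filter favoured this direction and the call carries less weight than its p. Its total signal was 12.8, 18.8, 19.2 and 22.2 units on the WT no UV arrays and 37.0, 31.8, 33.3 and 19.8 units on the KO no UV arrays. It was 6.5, 9.0, 9.5 and 6.2 units on the WT UV arrays and 6.4, 10.2, 8.8 and 11.5 units on the KO UV arrays. Every irradiated array lay under every non-irradiated array, and KO no UV held the highest values although its replicate 4 lay among the WT values. Mean normalized signal went from 21.2 ± 4.91 (SD, n = 4) without UV to 7.75 ± 1.88 with UV in WT, and from 25.1 ± 3.22 to 11.1 ± 2.46 in KO. Because no irradiated array detected it, the size of the UV difference is uncertain. Each irradiated array was counted at its lowest detected signal or, where larger, at the signal of mmu-miR-712 itself. By this count mmu-miR-712 was 1.80-fold lower with UV in KO and 1.81-fold lower in WT. These are not strict limits, because an undetected entry can lie above the lowest detected signal. On the KO UV arrays mmu-miR-762 was undetected at 16.0 to 20.3 normalized units. The spread between arrays is not included either. On the floored log2 scale the difference was -0.37 ± 0.08 (SE) in KO (adjusted p = 0.0105), where 29.8% of the tested miRNAs were called, and -0.21 ± 0.08 in WT (adjusted p = 0.104), where 16.2% were called. All 8 irradiated arrays were at the floor, so these sizes are set by the floor. Their SD on this scale was 0 in both irradiated groups. The SE and p therefore depend on the floor too, and the call is not a cautious one. The call in KO was lost under 3 other scalings, with an adjusted p of 0.127 for the 75th percentile of miRNAs detected on all arrays, 0.211 for that of all miRNAs and 0.323 for an invariant set. Over 11 alternatives that kept all arrays its adjusted p ran from 0.000629 to 0.323 and passed in 8. In WT the difference was called without WT no UV replicate 1 (adjusted p = 0.0291) or without KO no UV replicate 1 (0.0429), with normexp background correction (0.0241), with a floor of 1 unit (log2 difference -1.45, adjusted p = 0.000219) and in the deposited log2 table (-0.88, 0.000247), over a range of 0.000219 to 0.527. The UV difference in WT minus that in KO was 0.15 ± 0.12 (adjusted p = 0.674), so it was not shown to depend on genotype, and with both irradiated groups at the floor this test sees only the non-irradiated arrays.

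In the same KO comparison the 4 skeletal muscle miRNAs (miR-1, miR-133a, miR-133b and miR-206) were all called lower with UV and both keratinocyte miRNAs were called higher. The summed normalized muscle signal ran from 40650 to 50330 units in KO no UV and from 19460 to 24490 in KO UV, and the keratinocyte sum from 17460 to 22710 and from 22710 to 36820. Of the 4 leukocyte miRNAs 1 was called lower, and of the 2 erythrocyte miRNAs 1 was tested and not called. With UV in WT, 0 of the 4 muscle and 0 of the 2 keratinocyte miRNAs were called, and 1 of the 4 leukocyte miRNAs was called lower. The muscle sum ran from 20450 to 41170 units in WT no UV and from 21900 to 25990 in WT UV. The keratinocyte sum ran from 17770 to 20850 and from 20470 to 24800. The part of this tissue makeup and of the higher noise on the slide of irradiated skin in the mmu-miR-712 result was not tested, and in whole skin fewer cells of a type and less RNA per cell cannot be told apart.

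The probes of mmu-miR-712 were unequal. Of its 4 probes, 2 carried the signal, with median shares of 65.3% and 38.1% of the entry's total over the 16 arrays, and the other 2 had median shares of -3.30% and -0.316%, that is around background. The brightest probe reached 22.7 units at most. On the floored log2 scale the probes gave UV differences of 0 in WT and of 0 or -0.0063 in KO. Near the floor, single probes could not show the fall that was called in the total.

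MiR-720, the transfer RNA fragment, was bright on all arrays and differed in no contrast by more than the spread between arrays. Its total signal was 1758, 4874, 1467 and 3700 units on the WT no UV arrays and 1604, 7073, 3249 and 4655 units on the KO no UV arrays. It was 1794, 2377, 1829 and 3502 units on the WT UV arrays and 1399, 1857, 2435 and 2962 units on the KO UV arrays. All groups overlapped, and the arrays of KO no UV spread widest. On the log2 scale its normalized level was 11.5 ± 0.62 (SD, n = 4) without UV and 11.1 ± 0.27 with UV in WT, and 11.5 ± 0.70 without and 11.3 ± 0.57 with UV in KO, and no neighbours in the order of these levels differed beyond their spread. The difference with UV was -0.42 ± 0.39 (SE) in WT, with a 95% interval of -1.26 to 0.42 and an adjusted p of 0.526. In KO it was -0.22 ± 0.39 (interval -1.06 to 0.62, adjusted p = 0.725). Without WT no UV replicate 2 the WT difference was -0.20, and without KO no UV replicate 2 the KO difference was 0.0062. Both of its probes gave negative UV differences, and the longer of the 2 carried 84.6% to 86.7% of the signal on every array.

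MiR-709, the nuclear miRNA, differed by at most 0.26 on the log2 scale between groups, and none of its differences was called. It gave 2204, 2798, 2874 and 2407 units on the WT no UV arrays and 4436, 4808, 4757 and 3021 units on the KO no UV arrays. On the WT UV arrays it gave 2873, 2822, 3095 and 3500 units, and on the KO UV arrays 2358, 3361, 3225 and 2752 units. Every KO no UV array lay above every WT no UV array in total signal, and after normalization the 2 groups overlapped. Normalized levels were 11.6 ± 0.35 (log2, SD, n = 4) without UV and 11.5 ± 0.15 with UV in WT, and 11.7 ± 0.40 without and 11.8 ± 0.18 with UV in KO. The KO minus WT difference was 0.14 ± 0.20 (SE) without UV, with an interval of -0.29 to 0.57, and 0.26 ± 0.20 after UV, with an interval of -0.17 to 0.70. The UV differences were -0.03 ± 0.20 in WT and 0.10 ± 0.20 in KO, and scaling to the 75th percentile of miRNAs detected on all arrays turned the latter to -0.064. The 2 probes disagreed in the sign of both UV differences, -0.06 against 0.13 in WT and -0.15 against 0.15 in KO, and the probe with the higher values carried 79.7% to 86.2% of the signal.

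MiR-690, one of the 2 entries with an annotated hairpin sequence, had the largest UV difference among the members on the floored log2 scale, in KO, and it was not called. It gave 493, 596, 661 and 975 units on the WT no UV arrays and 1605, 1669, 1412 and 823 units on the KO no UV arrays. After UV it gave 780, 1040, 684 and 851 units in WT and 433, 793, 661 and 595 units in KO. In total signal every KO UV array lay under every KO no UV array, and after normalization KO no UV replicate 4 (656 units) fell within the KO UV range of 530 to 776 units. The log2 difference in KO was -0.70 ± 0.28 (SE), with an interval of -1.30 to -0.10 and a p of 0.0258 before and 0.0735 after adjustment. It was called without KO no UV replicate 4 (-0.95, adjusted p = 0.0178), with no normalization (-1.13, adjusted p = 0.00388), in the deposited log2 table (-0.74, adjusted p = 0.0398) and among miRNAs detected on all 16 arrays (adjusted p = 0.0489), and over the 12 alternatives that kept all arrays its adjusted p ran from 0.00388 to 0.232. In WT the UV difference was 0.01 ± 0.28 (interval -0.59 to 0.61) and was between -0.057 and -0.017 under 4 alternatives of scaling, background or table. KO minus WT was 0.47 ± 0.28 without UV (adjusted p = 0.451) and -0.24 ± 0.28 after UV (adjusted p = 0.951). The interaction, the UV difference in WT minus that in KO, was 0.71 ± 0.39, with an interval of -0.14 to 1.56 and an adjusted p of 0.498, so a dependence of its UV difference on genotype was not shown. Both probes gave a negative UV difference in KO, -0.62 and -0.68, whereas in WT their signs differed (0.085 and -0.011).

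MiR-762, the G- and C-rich entry, was near the detection limit on most arrays. After normalization it lay under the floor on 3 of 4 WT no UV, 2 of 4 WT UV and 2 of 4 KO UV arrays. Its log2 differences are therefore partly set by the floor. Its total signal was 12.5, 13.8, 37.8 and 17.1 units on the WT no UV arrays and 56.7, 31.6, 36.8 and 18.6 units on the KO no UV arrays. After UV it was 28.4, 12.1, 20.7 and 11.3 units in WT and 14.7, 17.0, 14.2 and 14.1 units in KO. WT no UV replicate 3 and KO no UV replicate 1, both in column 1 of the slide, stood above the rest of their groups. The KO UV arrays lay close together. KO UV, where no array detected it, averaged 1.53-fold under KO no UV in normalized signal before the floor (means of log2 values). This is a ratio of measured signals and not a bound. The fitted log2 difference of -0.52 ± 0.33 (SE), with an interval of -1.24 to 0.19, was not called (adjusted p = 0.263). Both the ratio and the difference leaned on KO no UV replicate 1, without which the ratio was 1.26-fold and the difference -0.25. In WT the UV difference was -0.20 ± 0.33 (adjusted p = 0.726), and without WT no UV replicate 3 it was 0.17. Its longest probe carried a median of 44.3% of the signal.

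MiR-689 gave 1179, 1193, 1913 and 1227 units on the WT no UV arrays and 2696, 2144, 2773 and 1189 units on the KO no UV arrays. After UV it gave 1158, 1325, 1198 and 956 units in WT and 1018, 1046, 1232 and 1053 units in KO. The irradiated arrays lay close together, while WT no UV replicate 3 and KO no UV replicates 1 to 3 lay above all of them. Normalized levels were 10.6 ± 0.51 (log2, SD, n = 4) without UV and 10.1 ± 0.33 with UV in WT, and 10.8 ± 0.66 without and 10.3 ± 0.20 with UV in KO. The UV difference was -0.57 ± 0.31 (SE) in WT (interval -1.25 to 0.11, adjusted p = 0.243) and -0.50 ± 0.31 in KO (interval -1.18 to 0.18, adjusted p = 0.263), called in neither. The size leaned on single arrays. In WT it was -0.31 without WT no UV replicate 3, and in KO leaving out replicate 1 of KO no UV gave -0.26 and leaving out replicate 4 gave -0.77. Both probes gave negative differences in both genotypes, -0.59 and -0.45 in WT and -0.41 and -0.44 in KO.

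MiR-805, the entry on the mitochondrial genome, was under the floor on all 16 arrays after normalization, so no difference was measured. Its total signal was 5.4, 6.5, 0.2 and 3.4 units on the WT no UV arrays, and 11.0, 10.4, 8.6 and 9.3 units on the KO no UV arrays. It was 3.2, 9.5, 4.8 and 4.0 units on the WT UV arrays and 3.2, 1.3, 6.1 and 6.7 units on the KO UV arrays. KO no UV lay above WT no UV without overlap in total signal, and after normalization the ranges overlapped, 6.32 to 8.19 against 1.88 to 6.53 units. A signal of 9.5 units on WT UV replicate 2 was not detected, whereas 5.4 units on WT no UV replicate 1 was.

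Without UV, 0 of the 7 entries and 0 of the 228 tested miRNAs (0%) were called between KO and WT by limma, and 36 of the 228 but 0 of the 7 had an unadjusted p under 0.05. The median difference was 0.14 over the 7 and 0 over all tested. With no normalization 4 of the 7, mmu-miR-689, mmu-miR-690, mmu-miR-709 and mmu-miR-712, were called higher in KO, beside 110 of all 228 and a median shift of 0.52 over all tested miRNAs, and KO no UV arrays were the brighter ones. After UV, 0 of the 7 were called between genotypes, 0 of the 7 had an unadjusted p under 0.05, and 5 of 228 (2.19%) were called. With UV in WT, 0 of 7 were called (1 with an unadjusted p under 0.05, mmu-miR-712), and the median difference was -0.20, against 0 over all tested. With UV in KO, 1 of 7 was called (2 with an unadjusted p under 0.05, mmu-miR-690 and mmu-miR-712) and the median difference was -0.365. The called share of 14.3% is under the 29.8% called among all tested. The median in WT is the value of mmu-miR-762 and that in KO the value of mmu-miR-712. These 2 entries and mmu-miR-805 entered the tests only through non-irradiated skin, so the filter favoured negative UV medians of the 7. Of all calls 42 were higher and 26 lower with UV in KO, and 21 and 16 in WT. Scaling to the 75th percentile of miRNAs detected on all arrays gave 22 and 33 in KO and 14 and 26 in WT, the invariant set gave 13 and 18 in WT, and no normalization gave 6 and 124 in KO and 36 and 7 in WT. The interaction called 0 of 7 by limma, with 0 of 7 at an unadjusted p under 0.05, beside 5 of 228 (2.19%).

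**Figure D2:**
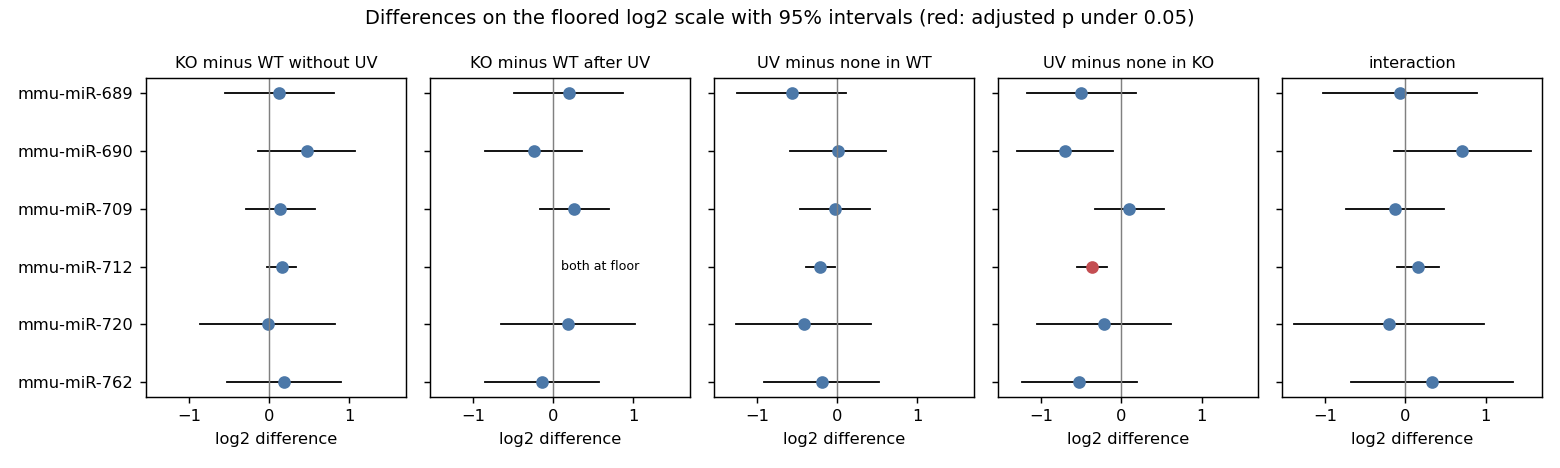
Log2 differences (horizontal axes) of 6 entries in the 5 contrasts, on the floored log2 scale, with points for limma estimates and lines for 95% intervals. The red point is the called fall of mmu-miR-712 with UV in KO (-0.37), and the other intervals include 0 or did not pass adjustment. MiR-805 is left out because all its values were at the floor, as were those of mmu-miR-712 in both irradiated groups.

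The other array entries from mmu-miR-680 to mmu-miR-721 in the catalogue served as a comparison list of similar age, by number alone. Of these 39, 5 were detected on all 16 arrays (12.8%) and 11 could be tested, against 4 and 7 of the 7. With UV, 1 of the 11 was called lower in WT, mmu-miR-680, and 1 was called lower in KO, mmu-miR-681. MiR-680 averaged 5.29 ± 0.27 (log2, SD, n = 4) in WT no UV and 4.61 ± 0.27 in WT UV, a difference of -0.68 ± 0.16 (SE) with an adjusted p of 0.00963. It was detected on all 4 arrays only in the non-irradiated groups (3 of 4 in WT UV, 2 of 4 in KO UV), so it too entered the tests through the groups where it was high. MiR-681 averaged 5.42 ± 0.46 in KO no UV and 4.69 ± 0.37 in KO UV, a difference of -0.73 ± 0.26 with an adjusted p of 0.0481. The median UV difference of the 11 was -0.33 in WT and -0.30 in KO. All 11 were detected on every KO no UV array, but 6 on every WT UV array and 6 on every KO UV array. The filter therefore leaned towards a fall with UV here too. None of the 11 was called between genotypes or in the interaction, where 1 of 11 had an unadjusted p under 0.05 after UV and 0 of 11 in the other 2.

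Arrays of the same group differed more for the 4 entries detected on all 16 arrays than for most miRNAs so detected. The dimmer entries were not ranked. The pooled SD within groups was 0.57 (log2) for mmu-miR-720, 0.46 for mmu-miR-689, 0.41 for mmu-miR-690 and 0.29 for mmu-miR-709. Over the 167 miRNAs detected on all 16 arrays the median was 0.20, and the 4 entries ranked 7, 12, 20 and 47 from the largest.

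**Figure D3:**
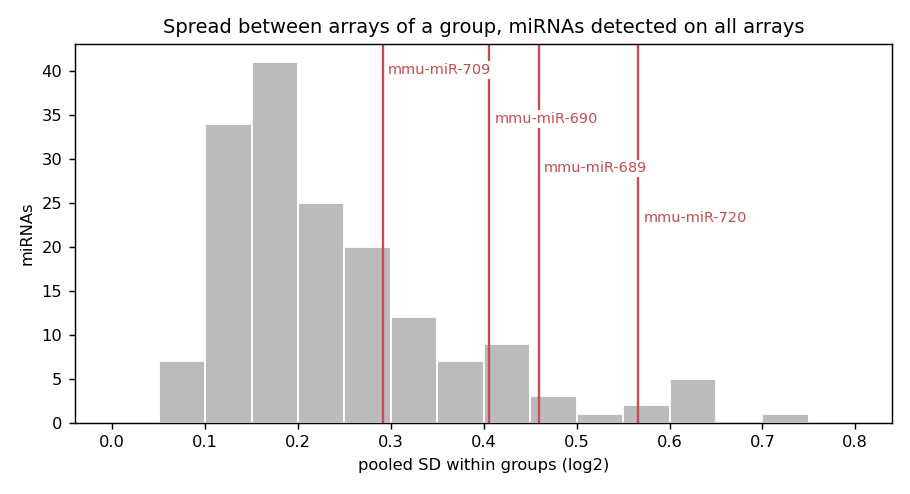
Number of miRNAs (vertical axis) by pooled SD of normalized log2 signal within the 4 groups (horizontal axis), over the 167 miRNAs detected on all 16 arrays. Red lines mark the 4 entries among them, from 0.29 for mmu-miR-709 to 0.57 for mmu-miR-720, all above the median of 0.20.

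The entry nearest in profile was sought among the 163 other miRNAs detected on all 16 arrays, as the smallest root mean square difference of centred log2 signals over those arrays. It was mmu-miR-188-5p for mmu-miR-709 (0.16), mmu-miR-714 for mmu-miR-689 (0.20), mmu-miR-671-5p for mmu-miR-690 (0.36) and mmu-miR-744 for mmu-miR-720 (0.37). Among the 4 members, mmu-miR-689 and mmu-miR-709 were closest (0.35) and mmu-miR-689 and mmu-miR-720 farthest (0.80). These are descriptions over 16 arrays that share slides and normalization.

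The spread of mmu-miR-720 went with the column of the array on its slide. Each group had 1 array in each of the 4 columns, so column and group were balanced. In total signal mmu-miR-720 ran from 1399 to 1794 units in column 1, from 1758 to 3249 in column 2, from 1829 to 7073 in column 3 and from 2962 to 4874 in column 4. Its normalized log2 level averaged 10.8 ± 0.16 (SD, n = 4 arrays), 11.1 ± 0.19, 11.7 ± 0.46 and 11.9 ± 0.28 in columns 1 to 4. Within every group columns 3 and 4 lay above columns 1 and 2, on the log2 scale by 1.06 without and 0.37 with UV in WT, and by 1.09 without and 0.98 with UV in KO. With the column added to the limma model the change was 0.39 ± 0.06 (SE) per column (adjusted p = 0.00295), the 2nd smallest p of 228, and 22 of 228 miRNAs were called for the column (9.65%), 13 higher and 9 lower towards column 4. The column was added after the mmu-miR-720 values had been seen, so this is a description of a pattern noticed in the same arrays. The other members were not called, with changes per column of -0.25 ± 0.08 for mmu-miR-762 and -0.24 ± 0.08 for mmu-miR-689 (both adjusted p = 0.0683), and -0.12 ± 0.06 for mmu-miR-709, -0.11 ± 0.09 for mmu-miR-690 and -0.02 ± 0.03 for mmu-miR-712. MiR-805, at the floor on all arrays, gave no measured change. For mmu-miR-689 the mean of columns 3 and 4 minus that of columns 1 and 2 was -0.53 without and -0.24 with UV in WT, and -0.99 without and 0.19 with UV in KO. For mmu-miR-762, partly at the floor, it was -0.72 without and -0.23 with UV in WT. In KO it was -0.77 without and -0.054 with UV. For mmu-miR-690 the signs were mixed, with differences of 0.15 without and -0.24 with UV in WT, and of -0.61 without and 0.13 with UV in KO. With the column in the model the standard error of each mmu-miR-720 difference fell from 0.39 to 0.19, and its UV difference of -0.42 in WT had an unadjusted p of 0.0437 and an adjusted p of 0.136. On the slide of irradiated skin the column number equals the replicate number, and on the other slide it does not. Whether the column stands for a position on the slide or for the order in which RNA was handled was not tested.

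**Figure D4:**
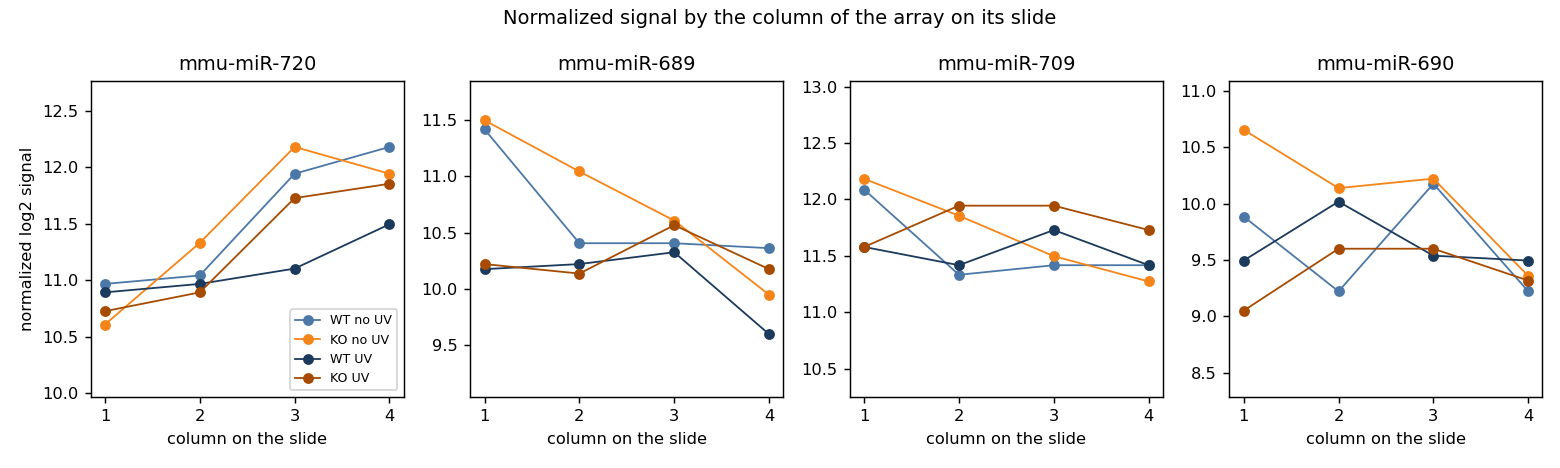
Normalized log2 signal (vertical axes, of equal span) of the 4 entries detected on all arrays, by the column of the array on its slide (horizontal axes), with 1 point per array and 1 line per group. MiR-720 is higher in columns 3 and 4 than in columns 1 and 2 in all 4 groups, whereas mmu-miR-689 is highest in column 1 and lowest in column 4 in the non-irradiated groups.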

How the data were processed

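Intensity values came from the deposited scanner files. Agilent Feature Extraction (9.5.3.1 per the file headers) subtracted a background and gave each miRNA a total gene signal with a detection call. The signals of a miRNA's probes add up to this total. A series table of log2 values, normalized by the authors with an invariant set and with quantiles, was kept for an alternative. Here, total gene signal was quantile normalized over 16 arrays, floored at 19.4 units (the 5th percentile of detected signals per array, median of the arrays) and log2 transformed. A group-means model was fitted with limma 3.58.1 (R 4.3.3) to 228 miRNAs, checked on simulated data. P-values were adjusted by Benjamini-Hochberg. Intervals are 95% from the model, and the number of arrays limits precision. Quantile normalization gives equal values to equal ranks. Probe signals were normalized over all miRNA probes for probe differences. Of 140 spots of the members per array, 1 to 12 were outlier-flagged and 0 saturated. Replicates were separate samples per the labels, and p-values measure only the spread between them. All 7 members were named by rule. The members and lists were chosen with earlier results of these data known. Alternatives changed scaling, background correction, signal, filter, floor, block, arrays, slide row, slide column and threshold, or left out each array.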

Additional observations from a re-analysis of the deposited data

Results flagged for a closer look

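Of 22 groups of 4 values with any spread, 4 held an array whose gap to the nearest other took up more of the group's range than Dixon's 95% critical value allows, where chance flags about 1 in 20. WT no UV replicate 3, the array with the lowest total signal (170979 units), was the high one for mmu-miR-689 (log2 11.4), mmu-miR-709 (12.1) and mmu-miR-762 (5.72, with the other 3 arrays at the floor). WT UV replicate 2 was the high one for mmu-miR-690 (log2 10.02). Their causes were not tested.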

How the results depend on the processing

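The count of members called between genotypes without UV rose from 0 to 4 with no normalization, and that for the interaction from 0 to 3. With UV in WT it rose from 0 to 1 (mmu-miR-712) with normexp, the authors' table and a floor of 1 unit, and ran from 0 to 1 when an array was left out. With UV in KO it went from 1 to 0 with 75th percentile scaling over either set, with invariant miRNAs and under the study's rule of p and fold, to 5 with no normalization and to 2 in the authors' table, and ran from 1 to 2 when an array was left out. With no normalization the median of all tested miRNAs moved to 0.52, -0.25, 0.21, -0.48 and 0.77 in the 5 contrasts, and signs turned for mmu-miR-720 between genotypes without UV (0.47), for mmu-miR-689 (-0.087), mmu-miR-709 (-0.080) and mmu-miR-720 (-0.14) after UV, for mmu-miR-709 with UV in WT (0.26) and in KO (-0.53), and for the interaction of mmu-miR-689 (0.72), mmu-miR-709 (0.79) and mmu-miR-720 (0.61). MiR-762 between genotypes after UV became 0.080 in the authors' table and 0.13 with a floor of 1 unit, and the interaction of mmu-miR-712 became -0.093 and -0.26. MiR-690 with UV in WT became -0.057 with the 75th percentile of miRNAs detected on all arrays, -0.031 with invariant miRNAs, -0.024 with normexp and -0.017 in the authors' table. MiR-709 with UV became 0.00092 in WT with the 75th percentile of all miRNAs and -0.064 in KO with that of miRNAs detected on all arrays. Apart from mmu-miR-709 with UV in KO (adjusted p = 0.0135) and in the interaction (0.014), both with no normalization, these turned values were not called, and the causes were not tested.

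Leaving out each array gave -0.12 to 0.40 for mmu-miR-689, -0.022 to 0.31 for mmu-miR-709, -0.24 to 0.29 for mmu-miR-720 and -0.089 to 0.55 for mmu-miR-762 between genotypes without UV. With UV in WT it gave -0.12 to 0.19 for mmu-miR-690, -0.11 to 0.15 for mmu-miR-709 and -0.33 to 0.17 for mmu-miR-762. With UV in KO it gave -0.046 to 0.26 for mmu-miR-709 and -0.52 to 0.0062 for mmu-miR-720. For the interaction it gave -0.31 to 0.21 for mmu-miR-689, -0.29 to 0.050 for mmu-miR-709 and -0.43 to 0.10 for mmu-miR-720. The replicate block kept 1 member called with UV in KO and 0 elsewhere. Same-numbered WT and KO arrays did not deviate together as a rule (r from -0.299 to 0.32), so the numbers were not taken as pairs. On the slide of irradiated skin replicates 1 and 3 had r of 0.316 and 0.32, above their highest r with another number (0.0358 and 0.178). For the remaining replicates of both slides an array of another number had the higher r, up to 0.745. With no filter limma warned that most residual variances were 0. Over all tested miRNAs the alternatives that kept all arrays called 0 to 111 (reported 0) between genotypes without UV, 0 to 6 (5) after UV, 15 to 58 (37) with UV in WT, 16 to 130 (68) in KO and 0 to 138 (5) for the interaction. Signal over background limits mmu-miR-805 on all arrays and mmu-miR-712 on irradiated ones, which lay under the floor. It also limits mmu-miR-762, which lay under the floor on some arrays of every group but KO no UV.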
